A study of Mus musculus and synthetic construct with 21 samples.

Results

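Pool 7 of a massively parallel reporter assay (MPRA) placed arrays of transcription factor motifs into 3 mouse genomic sequences and measured how much RNA each construct made. Described here are the arrays that combine 2 different motif names when neither name is ppar, fos, jun, fra1, bach1 or myb. They were chosen by their names alone. Of the 15 motif names in the pool, 9 remain, and they form 36 pairs with 27 arrays each, 972 oligos of 3243 in the pool and of 22463 designed in pools 1 to 7. Every pair was built with 2, 4 and 6 copies in 3 numbered arrangements in each of the 3 sequences. The names do not say what the arrangements are, or whether a copy number counts both motifs together. The comparisons are with the 243 arrays that carry one of the 9 names in both positions, called same-name arrays below, and with the 3 background elements that carry no array.

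The cells were 3T3-L1, a mouse line that turns from pre-adipocytes into adipocytes, and their induction used insulin at 1.7 µM, dexamethasone at 1 µM and the phosphodiesterase inhibitor IBMX at 0.5 mM, for 48 h. RNA was taken 16 h after transfection. Reads of a barcode in the transcript were counted in 1 RNA library and in 1 plasmid library. Neither library has a replicate, so all spreads below are SDs over arrays, which share motifs and backgrounds, and no p-value is given. They do not include variation between cultures. The RNA library held 9806531 counts and the plasmid library 10179019. Linked barcodes per mixed array ranged between 31 and 342, with a median of 145.

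The 9 names belong to several families. LXR is a nuclear receptor for oxysterols that binds with RXR and controls cholesterol and lipid genes. E4BP4 (NFIL3) and VBP are basic leucine zipper (bZIP) proteins of related binding preference. VBP is known from chicken as a member of the PAR group, to which mammalian TEF, HLF and DBP belong, and E4BP4 is best known as a repressor. ATF3 is a stress-induced bZIP protein, and the C/EBP proteins are bZIP factors that act early in adipocyte differentiation. FOXO4 is a forkhead protein restrained by insulin signalling and FOXD1 a forkhead protein of the developing kidney stroma. MYC binds E-boxes and AP-2 binds GC-rich sites.

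The backgrounds are 3 sites whose names give 16 bases resembling the DR1 motif of PPARγ and RXR, a direct repeat with 1 base between its half-sites. They are shown because every array below is read against the element of its own background. Written 5′ to 3′ as in the names, with capitals for the 8 bases that all 3 share at the same place, they are as follows.
chr13:46069371-46069386, strand +: tGaaGGtCAGaGtttA
chr15:67824069-67824084, strand -: aGtaGGaCAGgGgttA
chr9:66727486-66727501, strand +: aGtgGGgCAGaGggcA
Coordinates are of mm9, counted from 1. Each start is 1 above the number in the name, so that the span holds 16 bases. The sites are not assigned to genes here, since no mm9 annotation was used. The motif sequences inside the arrays are not printed, since only their names were used here.

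Activity is given on the log2 scale as RNA counts over plasmid counts, after adding 1 to each count and dividing by the total of its library. The chr13 element had 21377 RNA and 43479 plasmid counts, an activity of -0.97 (95% exact interval -0.99 to -0.95). The chr9 element had 19901 RNA and 50127 plasmid counts, an activity of -1.28 (-1.303 to -1.255). The chr15 element was the least active, with 1194 RNA and 7444 plasmid counts and an activity of -2.59 (-2.676 to -2.498). These intervals cover counting error only. The sources used here name no molecular identifier, so reads may not be independent molecules. Below, the difference of an array is its activity minus that of its background element, in log2 units, for arrays with at least 50 plasmid counts.

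Arrays of these pairs lay on both sides of their background element, and 54.4% were within 2-fold of it. Of 958 arrays that passed the minimum, 228 (23.8%) were at least 2-fold above it, against 39.5% of all mixed arrays of the pool. Another 209 (21.8%) were at least 2-fold below it, against 16.5% of all mixed arrays, and 521 lay within 2-fold. The median difference was 0.16, against 0.60 over all 2814 mixed arrays. The mean was -0.22 ± 2.05 (SD), lower than the median, with 52 arrays at 0 RNA counts in its lower tail. With at least 1000 plasmid counts, which keeps 783 arrays and no array with 0 RNA counts, the mean was 0.21 ± 1.26, the median 0.25 and the share 2-fold above 24.0%, against 40.5% of all mixed arrays. Of the 36 pairs, 12 had a mean above background, against 63.8% of all pairs of the pool, and at the minimum of 1000 it was 21, against 76.2%. At the minimum of 50, 0 pairs averaged at least 2-fold above background, against 31.4% of all pairs, and 3 averaged at least 2-fold below, against 9.52%. With the stricter minimum of 1000 these counts were 3, against 39.0%, and 0, against 0.952%.

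The 9 motif names differed in what their pairs gave, and lxr, e4bp4, vbp and atf3 came first. Over the 8 pairs of a name, arrays with lxr differed from background by 0.32 ± 1.85 on average (SD over 202 arrays), those with e4bp4 by 0.26 ± 1.76, those with vbp by 0.08 ± 1.98 and those with atf3 by 0.00 ± 1.87. Arrays with foxo4 averaged -0.29 ± 1.76, those with myc -0.47 ± 2.51, those with foxd1 -0.53 ± 2.03, those with cebp -0.66 ± 2.23 and those with ap2 -0.68 ± 2.04. With 1 library of each kind, whether neighbours in this order differ was not tested. By the share of arrays at least 2-fold above background the ends were the same names, 35.6% with lxr and 12.6% with ap2. Both were below the 39.5% of all mixed arrays of the pool. None of the 8 pairs with cebp and none of the 8 with ap2 had a mean above background, while 5 with lxr and 5 with e4bp4 did. Over all pairs of the pool the share was 63.8%, so lxr and e4bp4 were near it. Under the stricter minimum all 8 pairs of lxr and all 8 of e4bp4 averaged above background, against 76.2% of all pairs. Their means were 0.77 ± 1.02 over 173 lxr arrays and 0.53 ± 1.16 over 190 e4bp4 arrays. There cebp averaged -0.11 ± 1.29 and ap2 -0.13 ± 1.04, so the low end of the order lay close to background itself. Arrays with myc averaged 0.28 ± 1.38 over 167 arrays at the stricter minimum. The 14 arrays that fell under the minimum of 50 were all lxr arrays in chr15, 13 of them with 0 RNA counts, so the lxr mean leaves out its least covered arrays. Of the 52 arrays with 0 RNA counts at the minimum of 50, 23 (44.2%) carried myc, against 214 (22.3%) of all 958 arrays.

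As a group, pairs that joined members of the leading 4 names had the highest mean, but not every such pair ranked above the others. By the pair mean lxr+foxo4 ranked 4 with 0.64, while lxr+vbp ranked 8 with 0.36. This grouping was chosen after the values were seen and is a description only. The names were taken by their means over these same pairs, so the order of the groups is largely built in. Arrays with both motifs from lxr, e4bp4, vbp and atf3 differed from background by 0.69 ± 1.57 (SD, n = 160), and all 6 pairs averaged above it. Arrays with 1 such motif averaged -0.15 ± 1.97 (n = 528), with 6 of 20 pairs above background. Arrays with neither averaged -0.89 ± 2.22 (n = 270), and 0 of 10 pairs were above. Of all pairs of the pool, 63.8% averaged above background. The shares of arrays at least 2-fold above background were 43.1%, 24.1% and 11.9%, against 39.5% of all mixed arrays of the pool, so even the highest group was near the share of the pool as a whole. Under the stricter minimum the means were 0.89 ± 1.02, 0.26 ± 1.19 and -0.35 ± 1.31. By family, lxr with a bZIP motif averaged 0.48 ± 1.98 (n = 104), with 42.3% of arrays at least 2-fold above background. Pairs of bZIP motifs averaged 0.24 ± 1.56 (n = 162) with 28.4%, and a forkhead with a bZIP motif -0.32 ± 1.89 (n = 216) with 18.5%.

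The pair means could be described in large part by a sum of 1 value for each of their 2 motif names. These values were fitted by least squares to the same 36 pair means, so part of the share is built in. The fitted sum took 80.7% of the variance of the 36 pair means, and 83.8% when fitted at 1000 plasmid counts. This is a description without a test, since the 36 means rest on 1 pair of libraries and share the 3 background elements. The largest excess over the motif sum was at vbp+myc, whose mean was 0.26 against a sum of -0.16. The stricter minimum gave 1.19 and 0.43. The largest shortfall was at atf3+ap2, with a mean of -1.03 against a sum of -0.50. The stricter minimum gave -0.20 and -0.03.

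Across all 36 pairs, 3 averaged above the background element in each of the 3 backgrounds, lxr+e4bp4, atf3+lxr and atf3+e4bp4. Of all 105 pairs of the pool, 50.5% did. The pairs below the element in every background were 10 of 36, against 18.1% of all pairs, and all 10 lacked lxr and e4bp4. With 1000 plasmid counts 8 pairs were above in every background, against 59.0% of all pairs. These were the same 3 with lxr+vbp, lxr+myc, vbp+myc, atf3+myc and ap2+e4bp4. Arrays with low plasmid counts mostly had low activity, so this minimum also takes out many low arrays. Each of the added pairs kept only 5 arrays in chr15. There the mean of ap2+e4bp4 went from -0.63 to 1.47 and that of atf3+myc from -0.95 to 0.78. The other added pairs were already above in chr15 at the minimum of 50. In that setting 4 of 36 were below in every background, against 8.57% of all pairs.

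At the minimum of 50 the highest mean belonged to e4bp4+vbp, which joins a pair of bZIP motifs of related preference. Its 27 arrays differed from background by 0.97 ± 1.28 (SD), a 1.96-fold mean, with a median of 0.97 and a range between -1.42 and 3.55. Of these, 22 lay above background and 13 at least 2-fold above, against 39.5% of all mixed arrays at least 2-fold above. The median difference over all mixed arrays of the pool was itself 0.60. With the stricter minimum its mean was 0.74 ± 1.15 (n = 24), rank 7 of the 36 pairs. The pair was not active in every setting. In chr15 all 9 arrays were above background, with a mean of 2.16 ± 0.99, and in chr9 the mean was 0.80 ± 0.84, while in chr13 it was -0.05 ± 0.90. In chr13 the arrays with 2, 4 and 6 copies averaged -0.91, 0.43 and 0.34. Its highest array, 6 copies in arrangement 2 of chr15, had 2285 RNA counts on 1219 plasmid counts. Without the chr15 background the pair mean was 0.37, so most of its lead came from there.

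Of the 6 highest pairs, atf3+lxr had the smallest SD. It averaged 0.84 ± 1.09 (SD, n = 27), with 25 arrays above background and 11 at least 2-fold above. The latter count is near the 39.5% of all mixed arrays of the pool. Its means were 0.48 ± 0.47 in chr13, 1.15 ± 1.78 in chr15 and 0.90 ± 0.44 in chr9, where all 9 arrays were above background. In chr9 the arrays with 6 copies had 6103, 8362 and 5421 RNA counts on 8929, 8331 and 8330 plasmid counts, differences of 0.78, 1.34 and 0.71. Its lowest array was 4 copies in arrangement 2 of chr15, with 6 RNA counts on 430 plasmid counts and a difference of -3.30. Leaving out each background in turn gave means between 0.69 and 1.03.

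The pair lxr+e4bp4 ranked first by the mean at 1000 plasmid counts, with 1.31 ± 0.96 (SD, n = 23). At the minimum of 50 its mean was 0.84 ± 1.92 (n = 25), with 23 arrays above background. All 9 arrays were above the element in chr13 (0.87 ± 0.71) and all 9 in chr9 (1.22 ± 0.55). In chr15 the arrays varied widely. The 6-copy arrays there had differences of 3.49, 2.78 and 3.44, on 2132, 4704 and 4687 plasmid counts. Of its other chr15 arrays, 4 had 0 RNA counts, on 40, 48, 53 and 405 plasmid counts, and the first 2 of these fell under the minimum. The remaining 2-copy and 4-copy arrays there lay in between, with differences of 0.58 and 1.00. The mean with 2 copies was -0.19 and with 6 copies 1.94.

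The next places were held by lxr+foxo4, atf3+e4bp4 and atf3+vbp. The pair lxr+foxo4 averaged 0.64 ± 1.34 (n = 24), with 1.45 ± 2.02 in chr15 and 0.90 ± 0.66 in chr9 against -0.17 ± 0.95 in chr13. The pair atf3+e4bp4 averaged 0.59 ± 1.18 (n = 27). Its 6-copy arrays exceeded the matched 2-copy arrays in 9 of 9 settings, by 1.88 ± 1.22 (over all mixed arrays, 76.6% were higher). By copies its means were -0.31, 0.52 and 1.56 with 2, 4 and 6. The pair atf3+vbp averaged 0.53 ± 1.25 (n = 27), with 1.28 ± 1.68 in chr15, 0.51 ± 0.65 in chr9 and -0.21 ± 0.74 in chr13. Among the arrays kept, each of these pairs thus had its highest mean in chr15, the background with the least active element. For lxr+foxo4 that mean rests on 6 of 9 chr15 arrays, as the others fell under the plasmid minimum. With no plasmid minimum the mean of lxr+foxo4 over all backgrounds was 0.48 in place of 0.64. Its lead in chr15 therefore holds only for the arrays kept.

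By other measures lxr+vbp and vbp+myc also led. The pair lxr+vbp had the highest median of the 36, 1.04. Of its 27 arrays 14 were at least 2-fold above background, against 39.5% of all mixed arrays of the pool. Its mean was 0.36 ± 2.36, with 2 arrays at 0 RNA counts. Under the stricter minimum it averaged 1.11 ± 0.99 (n = 22). The pair vbp+myc had a median of 0.85 and 1.19 ± 1.30 (n = 21) at 1000 plasmid counts, against 0.26 ± 2.67 (n = 27) at the minimum of 50. Its 6-copy arrays exceeded the 2-copy arrays in 9 of 9 matched settings, by 2.94 ± 2.93 (over all mixed arrays, 76.6% were higher). The size of this gain rests partly on very low 2-copy arrays. Those averaged -2.23 in chr13 and -0.58 in chr15, with lowest values of -6.78 and -5.38, against 0.21 in chr9. Of the 27 arrays of this pair, 3 had 0 RNA counts. In chr13 its 6-copy arrays had differences of 1.05, 1.14 and 0.63, and in chr9 they had 1.61, 1.48 and 1.96.

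At the low end, cebp+ap2 had the lowest mean, -1.47 ± 2.64 (SD, n = 27), with 6 arrays above background. In chr13, where all 9 of its arrays passed 1000 plasmid counts, the mean was -0.35 ± 0.56. In chr9 the 2-copy and 4-copy arrays averaged -0.25 and -0.05, while the 6-copy arrays averaged -5.05, on 472, 424 and 779 plasmid counts. In chr15 the mean was -2.29 ± 3.33, with 2 of 9 arrays above background. Over the 17 arrays with at least 1000 plasmid counts the mean was -0.07 ± 1.00. These include only 2 arrays in chr15 and 6 in chr9, and none of the 6-copy arrays of chr9. That mean therefore leaves out most of the low arrays of the pair.

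The other low pairs also stood nearer to background at 1000 plasmid counts, to different extents, over a different mix of backgrounds. In chr15 that minimum kept 1 array of cebp+foxd1, 2 of atf3+ap2, 2 of cebp+myc and 6 each of foxo4+foxd1 and cebp+foxo4. At the minimum of 50 the chr15 means of the first 3 were -1.99, -2.63 and -1.52. The pair cebp+foxd1 averaged -1.23 ± 2.27 and atf3+ap2 averaged -1.03 ± 2.17, both with n = 27. Their means at 1000 plasmid counts were -0.54 ± 1.89 (n = 17) and -0.20 ± 1.00 (n = 20). The pair cebp+myc averaged -0.97 ± 3.04, the largest SD of the 36, with arrays between -7.27 and 4.52. Its mean was -0.24 ± 1.40 (n = 17) at 1000 plasmid counts. The forkhead pair foxo4+foxd1 averaged -0.96 ± 2.12 and cebp+foxo4 averaged -0.83 ± 1.89, and at 1000 plasmid counts these were -0.47 ± 1.49 and -0.63 ± 1.49 (n = 24 each). The lowest mean at 1000 plasmid counts was at ap2+foxd1, -0.67 ± 0.88 (n = 16). No array of that pair reached 1000 plasmid counts in chr15. The 22 pairs outside the 6 highest, the 6 lowest, lxr+vbp and vbp+myc had means between -0.81 and 0.36 at the minimum of 50.

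The share of active arrays differed between the 3 backgrounds. In chr13, 22 of 324 arrays (6.79%) were at least 2-fold above the element, against 24.9% of all mixed arrays there. In chr9, 69 of 324 (21.3%) were, against 39.3%. In chr15, 137 of 310 (44.2%) were, against 54.8%. At least 2-fold below were 70 arrays in chr13 (21.6%, against 15.1% of all mixed arrays), 37 in chr9 (11.4%, against 9.63%) and 102 in chr15 (32.9%, against 25.0%). The median differences were -0.08 in chr13, 0.29 in chr9 and 0.47 in chr15, while the median activities were -1.05, -0.99 and -2.11. By the median, arrays in chr15 thus stood furthest above their element and still had the lowest activity. The mean differences were -0.37 ± 1.38, 0.11 ± 1.40 and -0.42 ± 2.97 in chr13, chr9 and chr15, so the mean in chr15 had the other sign from the median. Plasmid counts moved with background, with medians of 3941.5 in chr13, 4028 in chr9 and 989.5 in chr15, and 55 of the 65 arrays with 0 RNA counts were in chr15. Over the 162 chr15 arrays with at least 1000 plasmid counts the mean difference was 0.97 ± 1.76.

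Pooled over backgrounds, arrays with more copies stood higher. Arrays with 2, 4 and 6 copies had median differences from background of -0.07, 0.06 and 0.42, and 16.5%, 21.1% and 33.6% of them were at least 2-fold above. Over all mixed arrays these shares were 19.2%, 39.5% and 59.7%. In chr15 the order was not kept, with medians of 0.24, -0.46 and 1.46 for 2, 4 and 6 copies. There 4 copies differed from 2 copies by -0.45 ± 3.94 and were higher in 45 of 96 matched arrays. With the stricter minimum the chr15 medians were 0.60, 1.38 and 1.92, and 4 copies were higher in 15 of 25. Within the same pair, background and arrangement, 6 copies exceeded 2 copies by 0.70 ± 2.82 (SD, n = 321; higher in 202, which is 62.9%), against 76.6% of all mixed arrays of the pool. The median gain was 0.44. By background the gain was 0.86 ± 2.19 in chr13, 1.23 ± 3.88 in chr15 and 0.01 ± 1.91 in chr9, with medians of 0.38, 1.19 and 0.38. Under the stricter minimum it was 0.41 ± 1.54 (n = 225; higher in 142), against 80.2% higher among all mixed arrays. By motif name, mixed arrays with lxr averaged -0.43, 0.46 and 0.93 with 2, 4 and 6 copies, and mixed arrays with e4bp4 -0.34, 0.28 and 0.82. The lxr values leave out the 14 chr15 arrays under the plasmid minimum, 11 of them with 4 copies. Of these 14 arrays, 13 had no RNA counts. The rise of the lxr mean between 2 and 4 copies therefore holds only for the arrays kept. Mixed arrays with ap2 averaged -0.62, -0.57 and -0.86. The same-name arrays averaged -1.05, 0.60 and 1.09 for lxr, -0.02, -0.23 and 1.23 for e4bp4, and -0.55, -1.28 and -3.21 for ap2. The 6-copy arrays of cebp+ap2 stood below its 2-copy arrays in all but 2 of 9 settings, by -1.75 ± 4.06.

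Mean deviations of the arrangements were small against their SDs. At the minimum of 50 they had opposite signs in chr13 and chr15. Pooled, arrangements 1, 2 and 3 deviated from their common mean by -0.13 ± 1.62, 0.09 ± 1.47 and 0.04 ± 1.47 (SD over 315 sets of the same pair, background and copies). In chr15 the deviations were -0.54, 0.22 and 0.32 (99 sets), in chr13 0.18, -0.08 and -0.10 (108 sets), and in chr9 -0.07, 0.14 and -0.07 (108 sets). With the stricter minimum the pooled deviations were -0.06, 0.07 and -0.00, those in chr15 -0.42, 0.15 and 0.27 (24 sets) and those in chr13 0.02, 0.04 and -0.06 (99 sets). The SD within such a set was 1.87, and 0.92 at 1000 plasmid counts.

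The same-name arrays give the activity of each motif by itself. Over the 9 names, 49 of 240 same-name arrays (20.4%) were at least 2-fold above background, against 37.8% of all same-name arrays of the pool. Mixed arrays had 23.8%, as above. The mean difference of the same-name arrays was 0.33 ± 1.40 for e4bp4, 0.27 ± 1.71 for atf3, 0.20 ± 1.97 for lxr and 0.03 ± 1.92 for vbp. It was -0.52 ± 2.72 for myc, -0.55 ± 1.498 for foxo4, -0.85 ± 2.35 for foxd1, -1.03 ± 2.16 for cebp and -1.62 ± 2.73 for ap2 (SD, n = 26 or 27). By these means the same 4 names came first as in the mixed arrays, and cebp and ap2 came last. By count, myc had the most arrays at least 2-fold above background, 11 of 26, and a median of 0.36. With the stricter minimum lxr led with 0.81 ± 0.91 (n = 23), followed by atf3 with 0.58 ± 1.28 (n = 22) and e4bp4 with 0.51 ± 1.07 (n = 26). There myc, with 0.42 ± 1.43 (n = 15), stood above vbp with 0.08 ± 1.74 (n = 23), and ap2 was at -0.13 ± 1.18 (n = 15). The lowest in that setting were foxo4 with -0.45 ± 1.53, foxd1 with -0.44 ± 1.35 and cebp with -0.41 ± 1.01. The pair means and the average of their 2 same-name means correlated across the 36 pairs (r = 0.84, and 0.85 at 1000 plasmid counts). This r is a description, as both sides share the background elements, the libraries and the plasmid depth.

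On average mixed arrays were close to the mean of their same-name arrays, while single arrays varied widely around it. Matched for background, copies and arrangement, mixed arrays exceeded the mean of both same-name arrays by 0.18 ± 2.16 (SD, n = 939; higher in 525, against 56.1% of all mixed arrays), with activities of -1.81 in mixed and -1.995 in same-name arrays. The median was 0.18, against 0.17 over all mixed arrays of the pool. At least 2-fold above that mean were 250 arrays (26.6%), against 24.7% of all mixed arrays, and at least 2-fold below were 178 (18.96%), against 18.4%. Above the higher of the 2 same-name arrays were 309 (32.9%), against 25.6% of all mixed arrays, and 104 (11.1%) were at least 2-fold above it, against 7.55%. The mean difference from the higher array was -0.82 ± 2.23. The higher of 2 noisy values is biased upwards, so this difference can lie below 0 where a mixed array equals both. Among arrays with at least 1000 plasmid counts the excess over the same-name mean was 0.12 ± 1.10 (n = 608).

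Over the same-name mean, the largest excesses by pair were 0.79 ± 1.68 at atf3+lxr (SD, n = 26; higher in 16), 0.79 ± 1.85 at e4bp4+vbp (n = 27; higher in 18) and 0.68 ± 1.30 at lxr+foxo4 (n = 24; higher in 19). Under the stricter minimum these were 0.26 ± 0.68, 0.45 ± 1.34 and 0.36 ± 1.00. The largest value in that setting was 0.66 ± 1.03 at lxr+vbp, next to 0.63 ± 0.57 at lxr+e4bp4. In lxr+e4bp4 20 of 24 arrays lay above the same-name mean at the minimum of 50. The largest deficits were at atf3+foxd1 (-0.46 ± 2.87, n = 27), atf3+ap2 (-0.34 ± 2.32, n = 26) and e4bp4+myc (-0.31 ± 2.60, n = 26). With the stricter minimum these were 0.18 ± 0.79, -0.19 ± 0.97 and -0.06 ± 1.32, so the first did not keep its sign. The largest deficit in that setting was at ap2+myc, -0.56 ± 1.32 (n = 10), which at the minimum of 50 was 0.37 ± 2.98 (n = 25).

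The highest single array was vbp+myc with 6 copies in arrangement 2 of chr15, with 22534 RNA counts on 4256 plasmid counts and 179 barcodes. Its activity was 2.46 (95% exact interval 2.41 to 2.51, counting error only), 33.0-fold above its background element. The other 6-copy arrays of this pair in chr15 stood 3.02 and 2.71 above the element on the log2 scale, against 5.04 for this one. The matched same-name arrays had activities of -0.18 (vbp) and -0.49 (myc). Next came cebp+myc with 2 copies in arrangement 2 of chr9, 7464 RNA counts on 817 plasmid counts and a difference of 4.52, and vbp+foxd1 with 4 copies in arrangement 3 of chr15, 2197 RNA counts on 801 plasmid counts and a difference of 4.09. Both had under 1000 plasmid counts.

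The 3 lowest arrays had 0 RNA counts, so only a bound can be given, at a floor of 3 RNA counts. The first was ap2+myc with 2 copies in arrangement 3 of chr13 (401 plasmid counts), at least 65.7-fold below its element. It was followed by cebp+ap2 with 6 copies in arrangement 1 of chr9 (472 plasmid counts), at least 62.5-fold below. The third was lxr+cebp with 2 copies in arrangement 3 of chr15 (977 plasmid counts), at least 52.3-fold below. These arrays had 131, 215 and 229 linked barcodes, against a median of 145 over the mixed arrays.

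The same motif names were read in pools 5 and 6, where motifs were altered or inserted at other sites. Inserted in pool 6, vbp stood above the mean of its slot by 0.21 ± 0.43 (SD over 95 slots; above in 66) and e4bp4 by 0.19 ± 0.35 (above in 70). The name lxr was at -0.00 ± 0.40 and atf3 at -0.18 ± 0.36, with myc at -0.16 ± 0.46 over 94 slots. Lower were foxo4 (-0.20 ± 0.43), foxd1 (-0.33 ± 0.53), cebp (-0.40 ± 0.46) and ap2 (-0.50 ± 0.47). Over all motif insertions of the pool, 44.6% were above their slot mean. Ordered by name, the pool 6 values and the mixed-array means had a Spearman rho of 0.88 over 9 names, a description with no test, while slots in pool 6 were filled by all motifs and so average about 0. Altered in pool 5, all 9 names averaged below the wild type form of their site. Of all 1803 altered instances of the pool, 85.9% were below it. The difference was largest for atf3 (-1.46 ± 0.88, below in 21 of 21 instances), e4bp4 (-1.10 ± 1.04, 10 of 10) and vbp (-0.87 ± 0.71, 10 of 11). For lxr it was -0.86 ± 0.85 (53 of 59) and for cebp -0.75 ± 0.95 (103 of 119). It was smallest for ap2 (-0.42 ± 0.76, 80 of 110) and foxd1 (-0.17 ± 0.52, 7 of 13). Instances of a site share its wild type element.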

How the data were processed

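The deposited table of pool 7 gives raw counts of RNA and plasmid reads, summed by the authors over the barcodes of each element, as the column headers and the submitters' design text state. Its number of linked barcodes equalled that in the deposited barcode map for 3243 of 3243 elements. The build mm9 and Bowtie2 2.1.0 are listed for the barcode library in the submitters' processing notes. Activity was computed with numpy 2.4.6 and pandas 2.3.3 as described with the results, for elements with at least 50 plasmid counts. Of 972 arrays, 958 passed. The other 14, with 7 to 48 plasmid counts, were all lxr arrays in chr15, and 13 had 0 RNA counts. Pools 5 and 6 were handled alike. With 1 RNA and 1 plasmid library no test was run, and differences are described by means, SDs and counts over arrays. Exact intervals were computed with scipy 1.17.1. The functions were tested on simulated data. Pairs named are the 6 highest and 6 lowest by mean difference, the 3 furthest above and below their same-name arrays and the 3 highest and lowest arrays. Others (lxr+vbp, vbp+myc, ap2+foxd1, ap2+myc and pairs named by a count) were chosen after their values were seen. Members and lists were chosen with earlier results of these data known. Alternatives were other count minimums, pseudocounts, medians, barcode numbers, baselines, folds and leaving out each background.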

Additional observations from a re-analysis of the deposited data

How the results depend on the processing

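No library had a replicate, and 175 of 958 arrays had under 1000 plasmid counts, 52 of them with 0 RNA counts. The pairs above background in every background numbered 3 and became 8 with at least 1000 plasmid counts, 12 by medians over arrays, 11 without chr13 and 0 against the median of all arrays in a background. The share of arrays at least 2-fold above, 23.8%, was 32.5% without chr13 and 14.04% without chr15. It was 34.9% at a threshold of 1.5-fold, 11.8% at 3-fold and 7.72% against the median of all arrays, where the mean over pairs was -0.94 in place of -0.21. The mean over pairs was 0.19 with at least 1000 plasmid counts and 0.16 by medians, so its sign depended on both. The cause of these shifts was not tested. Of 36 pair means, 16 kept their sign in every alternative run, and 9 had the other sign with at least 1000 plasmid counts, 9 without chr15 and 10 by medians. Placing arrays with 0 RNA counts at the bound of 3 counts, an alternative added after the data were seen, changed 1 sign and gave a mean over pairs of -0.13. Pseudocounts of 0.5 and 5 changed 0 and 3. With no plasmid minimum 2 pairs, atf3+e4bp4 and atf3+lxr, were above in every background. No paired analysis was possible because there was 1 RNA and 1 plasmid library.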

Other observations

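In 2 of the 27 designs (a background, copy number and arrangement) the plasmid counts of arrays with and without myc did not overlap, and in the other 25 they did. In chr13, the 8 arrays with myc, 2 copies and arrangement 2 had between 148 and 435 plasmid counts, against 2364 to 5977 in the 28 arrays of that design without myc. Their median number of linked barcodes was 92, against 122.5. The second design was chr9 with 2 copies and arrangement 2, with 817 to 2499 plasmid counts in the myc arrays, against 2916 to 6378 in the others. All 7 chr13 arrays with 0 RNA counts carried myc with 2 copies. In chr9 the 3 arrays with 0 RNA counts all had 6 copies, and none carried myc.

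Low plasmid counts went with low activity. Between 200 and 500 plasmid counts, 28 of 64 arrays (43.8%) had 0 RNA counts and the median difference from background was -5.13. Between 500 and 1000, 15 of 97 (15.5%) had 0 RNA counts and the median was -0.46. From 1000 to 2000, 0 of 111 had 0 RNA counts and the median was 0.47. The SD of the difference was 3.15, 3.27 and 1.96 in these 3 ranges, and 0.97 in the 342 arrays with at least 4000 plasmid counts. At least 8-fold below background were 39, 27, 6 and 0 arrays. The median numbers of linked barcodes in these 4 ranges were 207, 208, 197 and 138.5, and in the 14 arrays between 50 and 200 plasmid counts it was 107.5. Most arrays of the low ranges are in chr15, where medians from 200 plasmid counts up were between 203 and 218.5. In chr13 the ranges under 1000 had medians of 99, 96.5 and 92, against 114 and 131 in the ranges from 2000 up. In chr15 all 25 arrays with at least 4000 plasmid counts were at least 2-fold above the element.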
